A study of Homo sapiens with 4 samples.

Results

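The neuronal ceroid lipofuscinosis (CLN) genes examined here are TPP1, PPT1, CLN3, CLN6, CLN8, MFSD8, GRN, DNAJC5 and KCTD7, 9 of the 61533 gene identifiers in the count table. They were taken by symbol as genes mutated in this group of lysosomal storage diseases, apart from the cathepsins CTSD and CTSF. All 9 were among the 15950 genes that passed the filter on low counts. The cells were Caki-1, an established human renal cell carcinoma line, in 4 libraries of polyadenylated RNA. In the shControl arm (2 libraries, genotype label WT) cells carried a lentiviral control sequence, and in the shTFE3 arm (2 libraries, genotype label TFE3-KD) a lentiviral short hairpin RNA against TFE3, one of the MiT/TFE transcription factors. All cells were replated 24 hours after infection, received 1 µg/ml puromycin 12 hours later and were kept in it for 3 days. The labels give neither the number of hairpins nor the origin of the replicates (the same or different infections), and the error behind each p-value is thus the spread of these libraries, which may be technical.

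In neuronal ceroid lipofuscinoses, autofluorescent material builds up in lysosomes, and neurons are the cells most affected, although the genes are expressed in many tissues. The proteins act at different places: enzymes inside the lysosome, membrane proteins of the endoplasmic reticulum that help newly made enzymes leave for the Golgi, membrane proteins of the lysosome, and cytosolic proteins. MiT/TFE factors bind short E-box and M-box DNA elements and are known for driving lysosomal genes.

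The targeted gene was lower in both shTFE3 libraries. TFE3 mRNA was 131 and 128 CPM (counts normalised for depth with TMM factors) in the shControl libraries and 70.1 and 66.9 CPM in the shTFE3 libraries, 52.9% of the control level (edgeR adjusted p 5.6e-11). Gene counts totalled between 17270180 and 17742519 per library, and a count of 3, the floor of detection for counting error only, was worth 0.167 to 0.176 CPM. Of 9 renal epithelial markers, 7 averaged 100 counts or more, led by PAX8 and KRT8, and PAX2 was at 0 in every library. Their summed level was 1296 to 1339 CPM in shControl and 1196 to 1207 CPM in shTFE3, with 3 of 8 tested markers lower in shTFE3 past the threshold, and its part in the results was not tested. The summed level of 7 neuron markers was 82.7 to 89.8 CPM in shControl and 62.8 to 71.1 CPM in shTFE3. ENO2 and SNAP25 fell, STMN2 was at 0 and RBFOX3 at no more than 9 counts. SYT1 (554 to 684 counts), MAP2 (303 to 340) and TUBB3 (81 to 105) were detected and did not pass the threshold. The summed level of 5 leukocyte markers was 0.176 CPM in both control libraries and 0.618 to 0.723 CPM in shTFE3, that of 4 endothelial markers 2.81 to 3.23 and 3.37 to 4.06 CPM, and that of 4 fibroblast markers 19.7 to 19.9 CPM in shControl and 19.1 to 19.2 CPM in shTFE3.

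The promoter windows of 3 of the genes are shown first because these are the CLN genes whose window, from 250 bases before to 50 bases after the RefSeq start site, held an M-box. The M-box was searched as TCATGTGA on both strands, and capitals mark it. The TPP1 window (GRCh38.p14, chr11:6619373-6619672, minus strand) held 2 matches, the PPT1 window (chr1:40097203-40097502, minus strand) 1 and the GRN window (chr17:44345052-44345351, plus strand) 2:
TPP1: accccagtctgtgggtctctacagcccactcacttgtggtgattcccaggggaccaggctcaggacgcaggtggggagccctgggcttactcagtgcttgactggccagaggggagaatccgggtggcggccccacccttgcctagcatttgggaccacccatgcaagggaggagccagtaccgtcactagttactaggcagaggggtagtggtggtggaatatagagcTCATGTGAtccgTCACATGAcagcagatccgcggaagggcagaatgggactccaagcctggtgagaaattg
PPT1: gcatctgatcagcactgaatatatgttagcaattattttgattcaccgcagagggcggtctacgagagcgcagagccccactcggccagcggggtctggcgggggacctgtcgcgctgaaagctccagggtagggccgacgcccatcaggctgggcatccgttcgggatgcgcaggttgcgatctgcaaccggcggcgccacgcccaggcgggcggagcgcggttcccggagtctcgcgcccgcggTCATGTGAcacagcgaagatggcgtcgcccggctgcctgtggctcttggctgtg
GRN: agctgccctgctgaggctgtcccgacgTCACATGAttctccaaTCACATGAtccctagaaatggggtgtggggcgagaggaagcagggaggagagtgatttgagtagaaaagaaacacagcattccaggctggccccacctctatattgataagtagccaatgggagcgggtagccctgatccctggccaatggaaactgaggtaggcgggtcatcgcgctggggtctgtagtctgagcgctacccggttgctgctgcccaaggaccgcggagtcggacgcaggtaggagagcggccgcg

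In TPP1 the first bases of the matches lay 21 and 9 bases before the start site, and in PPT1 4 bases before it. In GRN they lay farther away, at 223 and 207 bases. In GENCODE the genes begin farther upstream than in RefSeq, TPP1 at 6619485, PPT1 at 40097727 and GRN at 44345086, so that the matches of TPP1 and PPT1 and the nearer match of GRN lie within the annotated spans. An M-box was found in 1.00% of the 35116 promoter windows of the same length. The window of CLN3 (chr16:28492025-28492324, minus strand) held instead the extended E-box TCACGTGA, and a second CACGTG, both in capitals here:
CLN3: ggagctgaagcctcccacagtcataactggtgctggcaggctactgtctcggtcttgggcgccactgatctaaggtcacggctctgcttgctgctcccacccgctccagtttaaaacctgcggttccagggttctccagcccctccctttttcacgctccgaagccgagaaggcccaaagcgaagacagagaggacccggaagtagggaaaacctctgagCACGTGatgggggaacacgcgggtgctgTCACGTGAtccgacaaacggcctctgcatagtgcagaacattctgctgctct

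In this CLN3 window the extended E-box began 2 bases before the start site, and the other CACGTG 30 bases before it. Every TCACGTGA contains CACGTG, which was found in 7.26% of all windows, against 0.980% for TCACGTGA. A second CLN3 window, which overlaps this one almost fully, held the same matches, and GENCODE begins CLN3 upstream of both windows, at 28495575. The longer CLEAR element, which contains TCACGTGA and was found in 0.353% of windows, was in none of the CLN gene windows. The 2 windows of CLN6 (the first at chr15:68257162-68257461, minus strand), the 2 of MFSD8 and those of DNAJC5 and KCTD7 held none of the 4 motifs. No window of CLN8 was used here. The map of motif matches shows these positions. Not on the map, the windows of CTSD and CTSF held CACGTG, 47 bases before the start site in CTSD and 123 and 51 bases in CTSF. The window of ATP13A2 held none of the motifs. A match describes the letters of the window and is no evidence of binding.

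**Figure D1:**
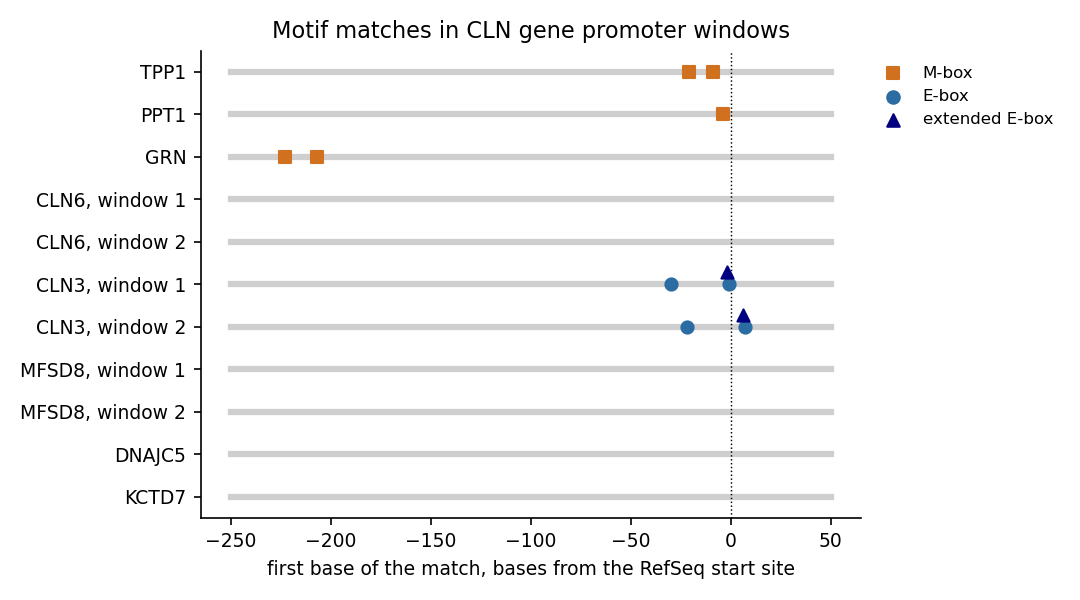
Position of motif matches in the promoter windows of 8 CLN genes. The horizontal axis gives the first base of each match in bases from the RefSeq start site, grey bars are the windows from 250 bases before to 50 after it, and squares, circles and triangles are M-boxes, E-boxes and extended E-boxes. TPP1 and PPT1 have M-boxes within 21 bases of the start, and GRN has 2 at 223 and 207 bases before it. Of these 8 genes only CLN3 has E-boxes.

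With TFE3 knocked down, 4 of the 9 CLN genes fell and 0 rose. TPP1 fell to 52.7% of its control level, PPT1 to 78.7%, GRN to 80.7% and CLN6 to 81.6%. CLN8, DNAJC5, MFSD8, KCTD7 and CLN3 did not pass the threshold, an adjusted p under 0.05 by edgeR's quasi-likelihood test with Benjamini-Hochberg adjustment over all tested genes. Of all tested genes 12.9% fell and 10.3% rose. By DESeq2, which gave CLN3 no adjusted p, TPP1, PPT1 and GRN fell, 3 of 8, and 0 rose, against 8.6% and 5.32% of the genes it tested. The median log2 fold change was -0.12 over the 9 CLN genes and 0.0015 over all tested genes. CPM values of the arms did not overlap, with shTFE3 lower, for 5 of the 9 genes and for 30.5% of all tested genes, and with shTFE3 higher for 1 gene, KCTD7, and for 29.8% of all tested genes. Genes were also grouped by the place where the protein works, a grouping made with the values known. All 3 soluble lysosomal or secreted proteins fell, as did 1 of 2 proteins of the endoplasmic reticulum. Of the 2 lysosomal membrane proteins 0 fell, and of the 2 cytosolic proteins 0. CLN3, a lysosomal membrane protein, had 6 to 14 counts per library and a 95% interval of -0.96 to 0.97. The result for that class thus rests on MFSD8 alone. In bulk RNA, fewer cells with a transcript and less RNA per cell cannot be told apart.

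**Figure D2:**
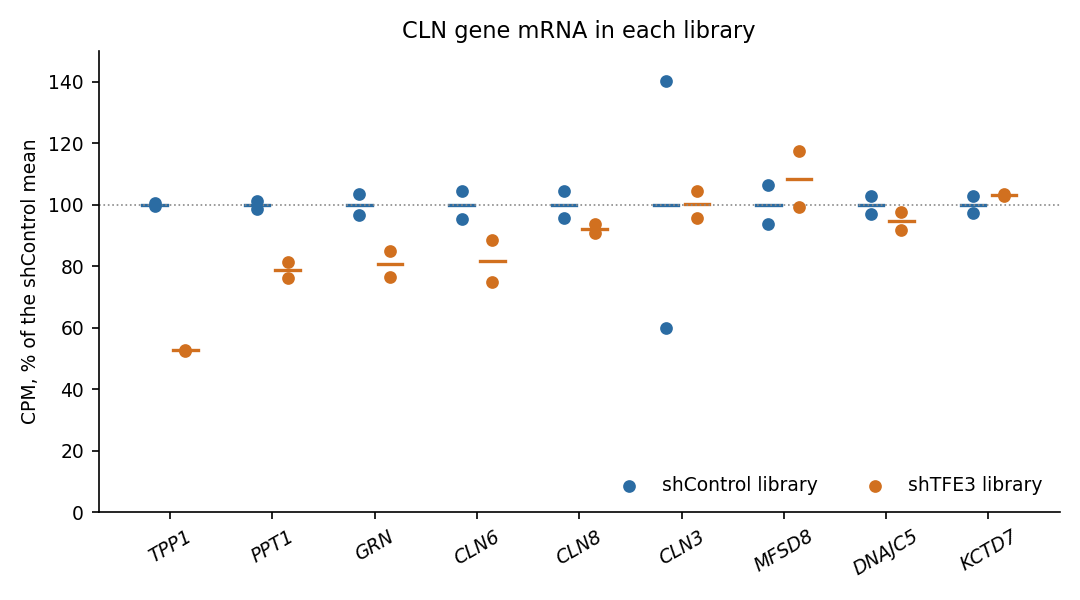
Level of each CLN gene in every library. Points are libraries, bars are arm means, and the vertical axis is CPM as a percentage of the shControl mean of the gene. The shTFE3 libraries of TPP1 sit together at 52.7% on average, and those of PPT1, GRN, CLN6 and CLN8 lie below both control libraries. Those of KCTD7 lie above both, and the arms overlap for CLN3, MFSD8 and DNAJC5. CLN8 and KCTD7 did not pass the threshold although their arms do not overlap.

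TPP1 (ENSG00000166340, chromosome 11, 6612763 to 6619485, minus strand, GRCh38) encodes tripeptidyl peptidase 1, a lysosomal serine protease that removes tripeptides from the amino end of proteins. Its counts were 2160 and 2140 in shControl and 1199 and 1178 in shTFE3, or 127 and 126 CPM against 66.7 and 66.2 CPM. The replicates of each arm lay close together and the arms were far apart. The log2 fold change was -0.92 (SE 0.062, 95% interval -1.05 to -0.80), with an edgeR adjusted p of 4.23e-11. Among 10914 tested genes averaging 100 counts or more it was the 90th lowest log2 fold change. TPP1 is also in the authors' deposited table (log2 fold change -0.92, adjusted p 4.14e-29), and the other 8 CLN genes are not among its 546 genes, whose smallest absolute log2 fold change is 0.59.

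The 3 genes whose log2 CPM, centred over the 4 libraries, lay nearest to that of TPP1 among 10906 candidates were ELOVL7, SH3TC2 and TFE3 itself. ELOVL7, a fatty acid elongase, had control counts of 855 and 867 and knockdown counts of 474 and 471, at a distance of 0.028 on the log2 scale. SH3TC2 had 1544 and 1523 counts against 869 and 866 (distance 0.037). TFE3 had 2231 and 2179 against 1259 and 1190 (distance 0.042). With 4 libraries in 2 arms, this likeness rests mainly on a similar difference between the arms.

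PPT1 (ENSG00000131238, chromosome 1, 40071461 to 40097727, minus strand) encodes palmitoyl-protein thioesterase 1, which strips fatty acids from cysteines of proteins that are being degraded in the lysosome. PPT1 had 155 and 151 CPM in shControl and 117 and 125 CPM in shTFE3. Both knockdown libraries were below both controls, and the shTFE3 libraries were farther apart than the controls. The log2 fold change of PPT1 was -0.35 (SE 0.059, 95% interval -0.47 to -0.22, edgeR adjusted p 9.93e-05). Exons of CAP1, on the opposite strand, cover 23.4% of the exonic bases of PPT1. CAP1 had control counts of 7881 and 7921 and knockdown counts of 8146 and 8616 (log2 fold change 0.016, SE 0.054, edgeR adjusted p 0.869). The strand setting of the counting is not given in the sources used here, so reads from the shared stretch cannot be told apart.

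GRN (ENSG00000030582, chromosome 17, 44345086 to 44353102, plus strand) encodes progranulin, a secreted precursor that is delivered to lysosomes and cut there into granulin peptides. Its level was 500 and 468 CPM in shControl and 411 and 369 CPM in shTFE3. Both knockdown libraries were below both controls, with a wider spread within each arm than for TPP1. The log2 fold change of GRN was -0.31 (SE 0.059, 95% interval -0.43 to -0.19, edgeR adjusted p 0.000304). Without shTFE3 replicate 2, the lower of the knockdown libraries, it was -0.24 with an edgeR adjusted p of 0.0809. No exon of another annotated gene overlaps GRN.

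CLN6 and CLN8 encode membrane proteins of the endoplasmic reticulum that together recruit newly made lysosomal enzymes into transport toward the Golgi. CLN6 (ENSG00000128973, chromosome 15, 68206992 to 68257211, minus strand) had 40.7 and 37.2 CPM in shControl and 29.1 and 34.5 CPM in shTFE3. The knockdown libraries were both below the controls, with the nearest libraries of the arms closer together than the replicates of shTFE3. The log2 fold change of CLN6 was -0.29 (SE 0.087, 95% interval -0.47 to -0.11, edgeR adjusted p 0.0157). The call was lost without any library other than shControl replicate 2. With shControl replicate 1 left out the edgeR adjusted p was 0.15 (log2 fold change -0.23), with shTFE3 replicate 1 left out 0.282 (-0.17), and with shTFE3 replicate 2 left out 0.0669 (-0.42). By DESeq2 the adjusted p of CLN6 was 0.123. CLN8 (ENSG00000182372, chromosome 8, 1755778 to 1801711, plus strand) had 36.9 and 40.3 CPM in shControl and 35.0 and 36.1 CPM in shTFE3. Its log2 fold change was -0.12, with a 95% interval from -0.28 to 0.045 (edgeR adjusted p 0.31). The intervals of CLN6 and CLN8 overlap, and the difference between both genes was not tested.

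CLN3 and MFSD8 encode proteins that span the lysosomal membrane: CLN3 is needed for the clearance of glycerophosphodiesters, the breakdown products of phospholipids, and MFSD8 (also called CLN7) belongs to the major facilitator superfamily of transporters. CLN3 (ENSG00000188603, chromosome 16, 28474111 to 28495575, minus strand) had only 6 and 14 control counts and 11 and 10 knockdown counts, or 0.352 and 0.822 CPM against 0.612 and 0.562 CPM. At this depth its 95% interval ran from -0.96 to 0.97 on the log2 scale, so a 1.5-fold change in either direction was not detectable. A second gene annotated on the same strand, ENSG00000261832, covers 82.5% of the coding bases and 25.2% of the exonic bases of CLN3 in GENCODE release 29. ENSG00000261832 was itself counted 0 and 0 times in the control libraries and 1 and 1 times in the knockdown. How reads that match both genes were counted is not given in the sources used here, and the part of this overlap in the low count was not tested. For comparison, the share of coding bases covered by exons of other genes was 42.2% for TPP1, 16.3% for CLN6, 31.5% for KCTD7 and 53.0% for CLN8, and 0 for PPT1, GRN, MFSD8 and DNAJC5. Among the further disease genes described below, this share was 89.5% for CTSD, 4.86% for ATP13A2 and 0 for CTSF. Of exonic bases, other genes cover 30.9% for CLN3, 23.4% for PPT1, 14.4% for TPP1, 13.9% for CLN6 and 11.2% for CLN8. The exonic share was 6.66% for KCTD7, 4.20% for MFSD8, 52.7% for CTSD and 3.60% for ATP13A2, and 0 for GRN, DNAJC5 and CTSF. A gene on the same strand, ENSG00000250644, covers 87.8% of the coding bases and 41.7% of the exonic bases of CTSD. CTSD had control counts of 9192 and 9015, and the part of the overlap in these counts was not tested either.

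MFSD8 (ENSG00000164073, chromosome 4, 127917732 to 127966034, minus strand) had 20.0 and 22.7 CPM in shControl and 25.1 and 21.2 CPM in shTFE3. The arms overlapped, and the log2 fold change was 0.12 with a 95% interval from -0.091 to 0.32 (edgeR adjusted p 0.451). The gene ABHD18, which starts within MFSD8 on the opposite strand, had control counts of 233 and 218 and knockdown counts of 235 and 229.

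Neither cytosolic member passed the threshold. DNAJC5 (ENSG00000101152, chromosome 20, 63895182 to 63936031, plus strand) encodes cysteine string protein alpha, a palmitoylated co-chaperone of secretory vesicles and lysosomes. It had 241 and 228 CPM in shControl and 215 and 229 CPM in shTFE3, so that the arms overlapped. The log2 fold change of DNAJC5 was -0.08, with a 95% interval of -0.20 to 0.038 (edgeR adjusted p 0.349). KCTD7 (ENSG00000243335, chromosome 7, 66628767 to 66649067, plus strand) encodes a BTB-domain protein that works with the ubiquitin ligase scaffold CUL3. It had 22.0 and 23.2 CPM in shControl and 23.4 and 23.3 CPM in shTFE3. Its log2 fold change was 0.044, with a 95% interval from -0.14 to 0.23 (edgeR adjusted p 0.779). Both intervals leave out a fall as large as that of PPT1.

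**Figure D3:**
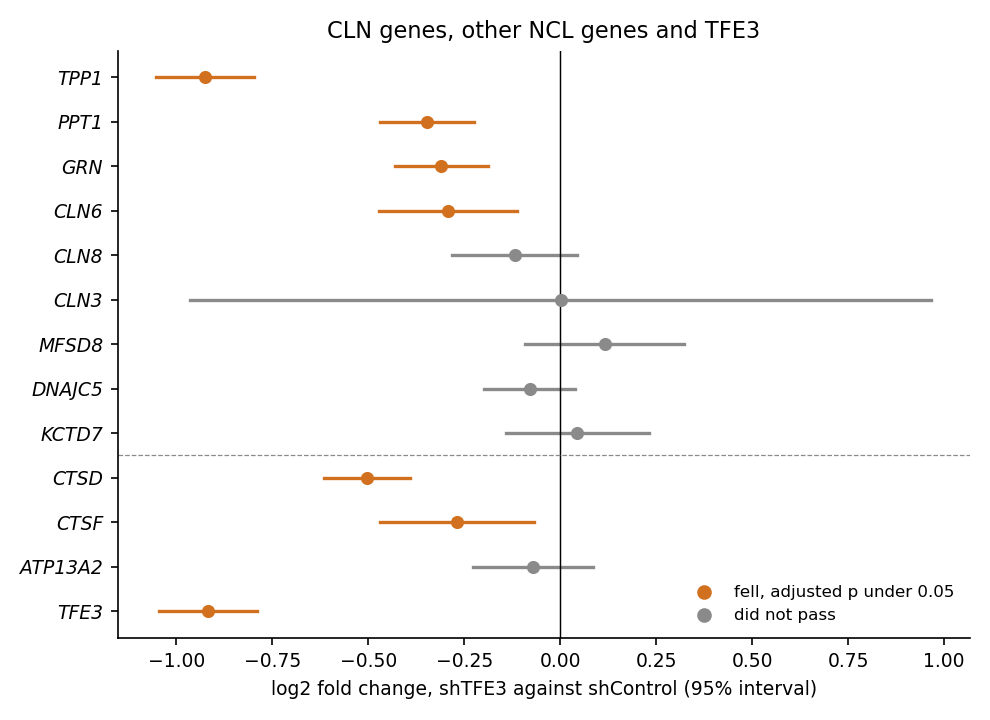
Log2 fold change of the 9 CLN genes, of 3 other genes of neuronal ceroid lipofuscinosis (below the dashed line) and of TFE3. Points are edgeR estimates from 2 libraries per arm, lines are 95% intervals, and orange marks an adjusted p under 0.05. TPP1 lies at -0.92 beside TFE3 at -0.92, and the interval of CLN3 runs from -0.96 to 0.97.

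Levels were compared between genes as CPM per kilobase of merged exons. In shControl the order was GRN with 132 ± 6.14, DNAJC5 with 44.4 ± 1.82, PPT1 with 30.2 ± 0.55, TPP1 with 19.3 ± 0.11, CLN6 with 5.30 ± 0.34, CLN8 with 4.08 ± 0.25, KCTD7 with 2.99 ± 0.12, MFSD8 with 2.35 ± 0.21 and CLN3 with 0.060 ± 0.034 CPM per kilobase (SD, n = 2). Neighbours in this order were farther apart than their SDs. The SDs do not cover how reads in exons shared with other genes were counted, and its part in the order was not tested. In shTFE3 the order was the same, with TPP1 at 10.2 ± 0.055 and PPT1 at 23.7 ± 1.09 CPM per kilobase (SD, n = 2). With the longest coding transcript as the length, a choice made after seeing the data, CLN6 was at 17.4, GRN at 207, TPP1 at 35.3, MFSD8 at 4.28 and CLN3 at 0.152 CPM per kilobase, each over 1.5 times its level by merged exons. By that length CLN6 stood farther above CLN8 (5.38), TPP1 came close to PPT1 (38.3), and MFSD8 stood above KCTD7 (3.80).

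Of 3 further genes of the disease described here, 2 fell and 0 rose. CTSD, the aspartic protease cathepsin D, had 539 and 529 CPM in shControl and 389 and 365 CPM in shTFE3, at a log2 fold change of -0.50 ± 0.054 (SE) and an edgeR adjusted p of 1.52e-07. CTSF, the cysteine protease cathepsin F, had 29.8 and 25.1 CPM against 24.3 and 21.3 CPM, at a log2 fold change of -0.27 ± 0.098 (SE) and an edgeR adjusted p of 0.0482. The call of CTSF was lost in 9 of 11 alternatives, among them DESeq2 (adjusted p 0.271), and with shControl replicate 1, shTFE3 replicate 1 or shTFE3 replicate 2 left out the edgeR adjusted p was 0.494, 0.149 and 0.436. ATP13A2, a lysosomal polyamine exporter, had control counts of 773 and 755 and knockdown counts of 800 and 725 (log2 fold change -0.07, 95% interval -0.23 to 0.084, edgeR adjusted p 0.552).

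Over 9 lists of genes that work beside the CLN proteins, with 137 genes in all, 123 were tested, of which 35 fell and 12 rose, 28.5% and 9.76% against 12.9% and 10.3% of all tested genes. Leaving out shControl replicate 1 or 2 gave 27 and 21 falls and 6 and 6 rises, and leaving out shTFE3 replicate 1 or 2 gave 14 and 12 falls and 2 and 3 rises. With no filter on low counts only CTSD, GGA2, CLCN5, GLMP and OSTM1 fell and only SLPI rose. The counts that follow are of the same edgeR test, to be set beside 12.9% fallen and 10.3% risen of all tested genes.

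Beside TPP1, 4 of 7 other lysosomal exopeptidases fell and 0 rose, with a median log2 fold change of -0.24. These were CTSA, a carboxypeptidase that also protects other lysosomal enzymes (-0.37), the aminopeptidase cathepsin H, CTSH (-0.48), DPP7 (-0.55) and CTSC, which removes dipeptides (-0.24). Each lies nearer to 0 than TPP1 at -0.92, a difference that was not tested. Without shTFE3 replicate 2 only 2 of them fell, with CTSA and DPP7 lost, and CTSC was lost without shTFE3 replicate 1.

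A list of 22 genes covered mannose 6-phosphate tagging, sorting and transport of lysosomal enzymes, and also held SUMF1 and SUMF2. Of these genes 7 fell and 4 rose, with a median of -0.07. The sorting receptors SORL1 (control counts 632 and 585, knockdown counts 438 and 429, log2 fold change -0.56) and SORT1 (-0.53), the adaptor GGA2 (-0.37) and SUMF1, which activates sulfatases (-0.64), had the smallest p. The 4 that rose, named after their values were seen, were GGA3 (0.24) and GGA1 (0.27), which are homologs of GGA2, the cargo receptor LMAN1 (0.18) and SCARB2, the receptor of glucocerebrosidase (0.16). The adaptor family thus had 1 member down and 2 up. Without shTFE3 replicate 2 the list had 3 down and 0 up, with SORT1 lost, and leaving out shControl replicate 1, shControl replicate 2 or shTFE3 replicate 1 gave 2, 1 and 0 rises, and DESeq2 gave 2.

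Among 10 tested partners and processing enzymes of progranulin, 5 fell and 1 rose. SORT1, its uptake receptor, is counted here again. CTSB (-0.32) and LGMN (-0.36), proteases that cut progranulin, fell. SLPI, a protease inhibitor that binds progranulin and shields it from elastase, rose from control counts of 285 and 318 to knockdown counts of 685 and 605, by 1.03 ± 0.093 (SE) on the log2 scale, with an edgeR adjusted p of 7.64e-09. PSAP, which carries progranulin to the lysosome, had control counts of 26216 and 26090 and knockdown counts of 27073 and 27022, a log2 fold change of -0.02 (edgeR adjusted p 0.821), and was named after its values were seen. Leaving out shControl replicate 2, shTFE3 replicate 1 or shTFE3 replicate 2 gave 3, 2 and 1 falls. LGMN lost its call without either shTFE3 replicate.

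PPT1 and DNAJC5 meet in protein palmitoylation, the former removing the fatty acid and the latter carrying it. Of 27 tested genes of palmitoyl transfer and removal, 9 fell and 1 rose, with a median of -0.03. The acyltransferases ZDHHC2 (-0.44), ZDHHC8 (-0.27) and ZDHHC21 (-0.29) and the cytosolic thioesterase LYPLA1 (-0.21) had the smallest p. PPT2, the lysosomal relative of PPT1, had control counts of 172 and 163 and knockdown counts of 178 and 181 (log2 fold change 0.031, edgeR adjusted p 0.894; named after its values were seen). Leaving out shControl replicate 1 or 2 gave 3 and 2 falls, leaving out either shTFE3 replicate gave 0, DESeq2 gave 2, and the 1 rise, of ZDHHC4, was lost by DESeq2 and without any 1 library.

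Of 13 tested chaperone partners of DNAJC5 and genes of misfolded protein secretion, 2 fell and 1 rose. These shares, 15.4% and 7.69%, were near the 12.9% and 10.3% of all tested genes. HSPA8, the heat shock cognate protein that DNAJC5 activates, had control counts of 25878 and 27688 and knockdown counts of 21614 and 24981 (log2 fold change -0.27, edgeR adjusted p 0.00197), a call lost by DESeq2 and without shControl replicate 2 or shTFE3 replicate 1. SNAP25, a fusion protein kept folded by DNAJC5 in neurons and also on the list of neuron markers, had control counts of 72 and 88 and knockdown counts of 71 and 40 (log2 fold change -0.60, edgeR adjusted p 0.0478), a call lost by DESeq2, with upper quartile factors and without shControl replicate 2 or either shTFE3 replicate. USP19, a deubiquitinase of misfolded protein secretion, rose by 0.33 on the log2 scale, a call lost without shTFE3 replicate 2. SGTB, a co-chaperone, was at 0.22 with an edgeR adjusted p of 0.0676. This list had 0 falls by DESeq2 or with shControl replicate 2 or shTFE3 replicate 1 left out, and 1 with shTFE3 replicate 2 left out.

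Relatives of KCTD7 and the core of the CUL3 ligase had 2 genes down and 1 up of 21 tested. These shares, 9.52% and 4.76%, were below the 12.9% and 10.3% of all tested genes. KCTD12, an auxiliary subunit of GABA-B receptors, fell from control counts of 526 and 614 to knockdown counts of 321 and 321, at a log2 fold change of -0.90 ± 0.094 (SE) and an edgeR adjusted p of 9.25e-08. KCTD3 rose by 0.27 on the log2 scale, a call lost without shTFE3 replicate 1. KCTD19 had control counts of 36 and 45 and knockdown counts of 27 and 21 (log2 fold change -0.82, edgeR adjusted p 0.027), a call lost by DESeq2 and without shControl replicate 2 or either shTFE3 replicate. KCTD10 was at -0.16 (edgeR adjusted p 0.0569). Leaving out shControl replicate 1 gave 3 falls, and leaving out each of the others, or DESeq2, gave 1.

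Genes of glycerophosphodiester metabolism and of bis(monoacylglycero)phosphate, the lipids tied to CLN3, had 0 of 11 tested genes down and 3 up, with a median of -0.06. These were the phospholipase PNPLA6 (0.29), the hydrolase ABHD6 (control counts 49 and 52, knockdown counts 90 and 77, 0.66) and PLD3 (0.20). GDE1 was at 0.18 with an edgeR adjusted p of 0.0727. Leaving out shControl replicate 1, shTFE3 replicate 1 or shTFE3 replicate 2 gave 1, 0 and 1 rises, and DESeq2 gave 1. PLD3 was lost without any 1 library, ABHD6 without shControl replicate 1 or either shTFE3 replicate, and PNPLA6 without shTFE3 replicate 1.

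The list nearest to MFSD8 held lysosomal and endosomal chloride exchangers, membrane proteins of the same superfamily and the partner proteins OSTM1 and GLMP. Of its 10 genes, 5 fell and 1 rose, with a median of -0.28. CLCN5, an endosomal chloride-proton exchanger of kidney tubules, fell from control counts of 467 and 506 to knockdown counts of 288 and 271, at a log2 fold change of -0.87 ± 0.094 (SE) and an edgeR adjusted p of 1.64e-07. The lysosomal exchanger CLCN7 (-0.39) fell together with its partner subunit OSTM1 (-0.59), and GLMP, the partner of MFSD1, fell by 0.64 on the log2 scale. MFSD1 itself was at -0.17 with an edgeR adjusted p of 0.0817, and was named after its values were seen. CLCN7 was lost without either shTFE3 replicate, the falls numbered 3 without either of these, and the 1 rise, of CLCN6, was lost by DESeq2 and without any 1 library.

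**Figure D4:**
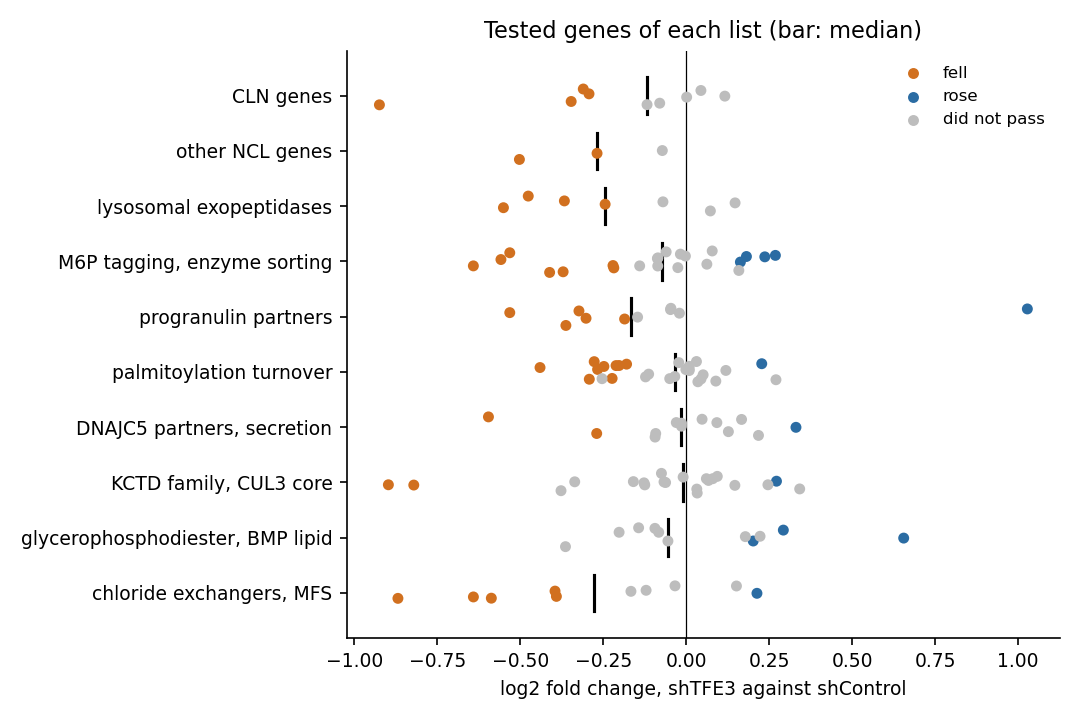
Log2 fold changes of the tested genes in each list, with the CLN genes on top. Each point is a gene, orange fell, blue rose and grey did not pass, points are spread vertically only to separate them, and the black bar is the median. The medians run from -0.28 for chloride exchangers to -0.009 for the KCTD family, and TPP1 is the lowest point at -0.92.

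The M-box that marked the windows of TPP1, PPT1 and GRN was also counted over all tested genes with a RefSeq window, 11269 in all. Of 139 tested genes with an M-box, 43 fell, or 30.9%, against 13.6% of those without. TPP1, PPT1 and GRN are among the 43. The extended E-box TCACGTGA was in the windows of 247 tested genes, of which 21.5% fell, against 13.7% without it, and CACGTG in those of 1391, of which 17.0% fell, against 13.4% without it. The CLEAR element was in those of 99, of which 19.2% fell, against 13.8% without it. Of the genes with an M-box 7.91% rose, with TCACGTGA 8.91%, with CACGTG 8.99% and with the CLEAR element 10.1%, beside 10.3% of all tested genes. These shares are descriptions of this comparison with no test, and the motifs were chosen with the values of the CLN genes known.

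**Figure D5:**
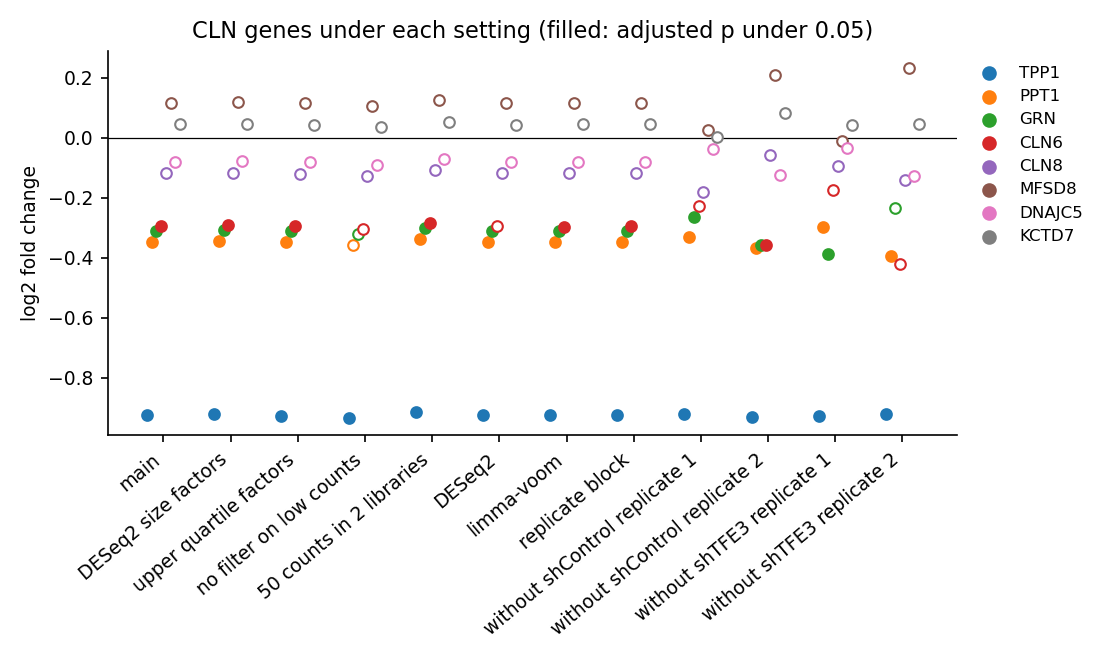
Log2 fold change of 8 CLN genes under the main analysis and 11 alternatives. Filled points have an adjusted p under 0.05 and open points do not, and CLN3 is left out because of its low counts. TPP1 stays between -0.93 and -0.92 and filled throughout, while CLN6 is open in 5 of the alternatives.

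The plot of settings shows how far each call rested on the analysis. TPP1 passed in all 11 alternatives, PPT1 in 10, GRN in 9 and CLN6 in 6. When genes with low counts were kept, PPT1 had an edgeR adjusted p of 0.0708, GRN of 0.137 and CLN6 of 0.302. CLN8, MFSD8, DNAJC5 and KCTD7 passed in none of them, and the log2 fold change of MFSD8 ran from -0.009 to 0.23, its ends set by leaving out shTFE3 replicate 1 or 2. Of the 9 CLN genes, 2 fell without shTFE3 replicate 2, 3 without shTFE3 replicate 1 or shControl replicate 1, and 4 without shControl replicate 2.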

How the data were processed

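The authors deposited whole-number read counts by Ensembl gene for 4 libraries of paired 150-base reads. The submitters' processing notes name build hg38 and the tools STAR, Trim Galore, DESeq2 and featureCounts. Their versions, the annotation and the strand setting: not given in the sources used here. The authors' deposited table of 546 changed genes gives mean normalized signal, log2 fold changes with and without shrinkage, their standard error, a test score, p-values and, among other columns, the feature length. Symbols came from a gene name table, which matched 61415 of 61533 identifiers. Coordinates and exon lengths are those of GENCODE release 29 on GRCh38, and promoter windows those of RefSeq on GRCh38.p14. The counts may rest on another annotation. The authors' feature length was 6502 bases for TPP1 and 4207 for TFE3, against merged exons of 6544 and 4283 bases here.

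The test was edgeR 4.0.16 in R 4.3.3: TMM factors, filterByExpr by arm, the arm as the only term, glmQLFit and glmQLFTest, and Benjamini-Hochberg adjustment at 0.05. It had 2 residual and 22.4 prior degrees of freedom. Standard errors were taken from the log2 fold change and the quasi-likelihood F statistic, and intervals are 95% intervals from it. Replicates differed beyond sampling noise (chi-square per degree of freedom 1.62 in shControl and 2.44 in shTFE3) and each library was counted once. Log2 CPM used a prior count of 2. Tested on simulated counts of 15950 genes for this comparison, the procedure found 20 of 50 genes altered 1.25-fold, 37 of those altered 1.5-fold, 37 of those altered 2-fold and 48 of those altered 4-fold. It called 6 genes that were not altered. Alternatives were other size factors, other filters, DESeq2 1.42.0, limma 3.58.1 (voom), a replicate block and each library left out.

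The members and lists were chosen with earlier results of these data known. The rule named all members, TFE3, the other disease genes (of which 1 is not reported here and was left out of its list), up to 4 genes with the smallest p in each list, genes that overlap a member and the 3 nearest patterns to TPP1, not all of which are printed; genes named outside it were chosen after their values were seen.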

Additional observations from a re-analysis of the deposited data

How the results depend on the processing

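Of the 9 CLN genes 4 fell and 0 rose in the main analysis, and 1 fell with no filter on low counts; leaving out single libraries gave 2 to 4, and no alternative gave a rise. The tested genes that changed numbered 3709, against 384 with no filter, 1947 by DESeq2 and 1043 to 2514 with 1 library left out. The listed genes that fell numbered 35, against 5 with no filter, 22 by DESeq2 and 12 to 27 with 1 library left out, and those that rose 12, against 1, 6 and 2 to 6. The causes were not tested. Other size factors, at least 50 counts in 2 libraries and limma-voom left all 5 counts within 1.5 times. Of 198 counts for single lists under alternatives, 70 moved by more than that. No shared shift of same-numbered libraries was seen: their deviations from their arm means had a correlation of -0.069 over 12183 genes. This cannot show whether the libraries were paired by origin, which the labels do not give. With the replicate block 4 CLN genes fell and 0 rose, 3558 genes changed, and 33 listed genes fell and 9 rose. With 2 libraries per arm, small changes of genes with few counts, CLN3 above all, were not detectable.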
